A study of Mus musculus with 9 samples.

Results

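The genes described here are 9 markers of B cells and of their antibody-secreting descendants, plasma cells, in RNA sequencing of mouse colorectal tissue. They were chosen by gene symbol with earlier results of these data known, and no cut on their values was applied. The genes are *Ms4a1*, *Cd79a*, *Cd79b*, *Ighm*, *Tnfrsf17*, *Mzb1*, *Jchain*, *Igha* and *Ighg2b*. All 9 of 9 were found among the 21498 symbols measured, and all 9 passed the filter on low values. The study asked what a neutralizing antibody against S100a9, a calcium-binding protein of neutrophils, does to colitis-associated colorectal cancer. All 9 animals were males of the outbred strain ICR that entered the experiment at 5 weeks of age. They are taken here as killed at the end of week 18. The study also killed mice at an earlier week, and its text does not say which time point gave the RNA. Each group held 3 mice, labelled as biological replicates. Control mice received no carcinogen, no colitis agent and no antibody, and their tissue is labelled normal colorectal mucosa. The mice called IgG here (AOM/DSS + IgG Ab) received 1 intraperitoneal dose of 10 mg/kg azoxymethane (AOM, a carcinogen) and then 3 cycles of drinking water with dextran sulfate sodium (DSS, a polymer toxic to colon epithelium), at 2% for 7 days and later at 1.5% for 5 days. They were also injected intravenously with 1.5 mg/kg of a control IgG antibody every 2 days during the DSS cycles. The mice called anti-A9 (AOM/DSS + anti-S100a9 Ab) were treated identically except that the antibody was the rabbit polyclonal anti-S100a9 antibody at 1.5 mg/kg. Both AOM/DSS groups are labelled colorectal adenocarcinoma, while the study's text speaks of colon mucosa for the anti-A9 samples and of colon tissue for the RNA, so treatment and kind of tissue cannot be told apart.

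A B cell senses antigen with a membrane immunoglobulin whose signal is carried into the cell by the paired chains CD79A and CD79B, and it carries CD20, the product of *Ms4a1*, on its surface. When it becomes a plasma cell it shuts down much of this surface machinery and turns to secretion, using the survival receptor BCMA (*Tnfrsf17*) and the endoplasmic reticulum protein encoded by *Mzb1*, which assists immunoglobulin assembly. In the colon the main product is IgA, whose heavy chain is encoded by *Igha* and whose dimers are joined by the J chain (*Jchain*) and carried across the epithelium by the polymeric immunoglobulin receptor (*Pigr*). Naive B cells gather in lymphoid follicles of the gut wall, whereas plasma cells lie scattered in the lamina propria.

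All positions are from GENCODE M21 on GRCm38. *Ms4a1* lies on chromosome 19 (11249675 to 11266241, minus strand), *Cd79a* on chromosome 7 (24897381 to 24902197, plus strand), *Cd79b* on chromosome 11 (106311341 to 106314762, minus strand), *Tnfrsf17* on chromosome 16 (11313812 to 11320074, plus strand) and *Jchain* on chromosome 5 (88519809 to 88527891, minus strand). The immunoglobulin heavy chain genes share the minus strand of chromosome 12, with *Igha* at 113254830 to 113260236, *Ighg2b* at 113302965 to 113307933 and *Ighm* at 113418558 to 113422730.

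The bases just upstream of 3 of the genes are shown because *Cd79a* followed the B cell genes from mouse to mouse while *Tnfrsf17* and *Jchain* followed the plasma cell genes. The sequences are from RefSeq on GRCm38.p6, each read 5′ to 3′ on the strand of its gene and ending before the annotated gene start. Capitals mark a match to a searched motif on either strand. The motifs were the octamer ATGCAAAT, the E-box CAGGTG and TATAAA, none of which overlapped another in these 3 windows.
Cd79a, chr7:24897247-24897380, plus strand: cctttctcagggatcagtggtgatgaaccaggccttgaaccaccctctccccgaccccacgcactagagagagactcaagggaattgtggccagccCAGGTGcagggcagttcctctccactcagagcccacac
Tnfrsf17, chr16:11313559-11313808, plus strand: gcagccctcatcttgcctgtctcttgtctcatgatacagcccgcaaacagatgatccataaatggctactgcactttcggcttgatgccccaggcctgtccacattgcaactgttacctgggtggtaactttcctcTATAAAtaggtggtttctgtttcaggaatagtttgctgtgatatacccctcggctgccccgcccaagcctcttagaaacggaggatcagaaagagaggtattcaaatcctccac
Jchain, chr5:88527898-88528147, minus strand: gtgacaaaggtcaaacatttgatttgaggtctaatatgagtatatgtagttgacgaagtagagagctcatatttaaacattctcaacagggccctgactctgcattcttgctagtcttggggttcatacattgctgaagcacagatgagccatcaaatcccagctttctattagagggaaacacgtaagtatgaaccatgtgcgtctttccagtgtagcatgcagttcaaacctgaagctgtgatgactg
The *Cd79a* window held 1 E-box, the *Tnfrsf17* window 1 TATAAA, and the *Jchain* window none of the 3 motifs. Among 32851 mouse windows of 250 bases, 17.2% held the E-box, 12.4% TATAAA and 1.60% the octamer, and these matches are a description of the letters only. The printed *Cd79a* window is shorter than these, at 134 bases, because 116 bases inside the annotated gene were left out.

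The heavy chain genes of the IgG subclasses share stretches of coding sequence, so the counting may have split reads between them and the level of *Ighg2b* is uncertain in that respect. In its longest coding transcript, 5.75% of the 50-base windows of *Ighg2b* also occurred in *Ighg2c*, 3.35% in *Ighg3* and 0.858% in *Ighg1*, and none of its windows occurred in *Igha* or *Ighm*. The longest runs shared with its neighbours are printed here, since reads inside them cannot be assigned to 1 gene. The first is coding sequence of the third exon and the second of the fifth exon of *Ighg2b*.
Ighg2b and Ighg2c, chr12:113306869-113306946, minus strand: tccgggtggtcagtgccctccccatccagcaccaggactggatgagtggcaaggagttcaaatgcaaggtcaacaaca
Ighg2b and Ighg3, chr12:113304919-113305006, minus strand: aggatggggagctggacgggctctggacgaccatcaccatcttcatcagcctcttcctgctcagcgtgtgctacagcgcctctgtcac
The mouse genome assembly carries *Ighg2c*, whereas other strains carry *Ighg2a* at that place, and which of them these outbred mice carried is not given in the sources used here.

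Levels are in FPKM, fragments scaled by transcript length and library size, which puts different genes on 1 scale per length. *Gapdh*, a glycolytic gene used by every cell, was nevertheless listed at only 0.156 to 0.755 FPKM over the 9 mice, so a low level in this table does not always mean a scarce transcript. The FPKM totals ranged from 308377 to 408811 per mouse. Read counts were not used here. In genes under 0.06 FPKM in both mice, the most common ratio to Control replicate 1 was between 0.895 and 1.18. It was read as the relative worth of 1 fragment. Only ratios near 1 were searched, so a larger difference in depth between mice could not have been seen. *S100a9* itself was between 0.370 and 0.859 FPKM in Control mice, between 63.1 and 267 in IgG mice and between 5.54 and 11.6 in anti-A9 mice. In tissue RNA, fewer cells of a type and less RNA per cell cannot be told apart.

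The 4 B cell genes ranged widely within each group. *Cd79a* was measured at 46.3, 11.7 and 89.8 FPKM in Control replicates 1, 2 and 3, at 3.95, 40.1 and 5.53 FPKM in the IgG replicates, and at 61.8, 22.0 and 68.6 FPKM in the anti-A9 replicates. IgG replicates 1 and 3 were the lowest of the 9 mice, IgG replicate 2 was close to Control replicate 1, and every pair of groups overlapped. The group means were 49.3 ± 39.1 (SD, n = 3) in Control, 16.5 ± 20.4 (SD, n = 3) in IgG and 50.8 ± 25.2 FPKM (SD, n = 3) in anti-A9 mice.

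*Cd79b*, the partner chain, took values of 35.7, 8.74 and 85.2 FPKM in Control, 2.22, 36.1 and 4.89 FPKM in IgG, and 53.0, 13.8 and 54.9 FPKM in anti-A9 mice. Its order over the mice was nearly that of *Cd79a*, and the ratio of *Cd79a* to *Cd79b* stayed between 1.05 and 1.78 in all 9 mice while the genes themselves ranged over 22.7-fold and 38.4-fold. *Ms4a1* had the widest range of the 9 genes, with 19.4, 2.29 and 19.9 FPKM in Control, 0.471, 11.9 and 0.523 FPKM in IgG, and 28.1, 6.02 and 32.3 FPKM in anti-A9 mice. The highest mouse stood 68.6-fold above the lowest. *Ighm*, which encodes the heavy chain of IgM, the first immunoglobulin a B cell makes, was at 164, 37.0 and 236 FPKM in Control, 9.11, 93.9 and 33.0 FPKM in IgG, and 182, 46.8 and 237 FPKM in anti-A9 mice. For all 4 genes, replicate 2 was the lowest Control mouse, the highest IgG mouse and the lowest anti-A9 mouse. Of all genes tested, 23.3%, 26.8% and 46.6% had replicate 2 at these places, each counted by itself.

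The plasma cell genes had a different order mainly among the anti-A9 mice. As in the B cell genes, replicate 2 was the highest IgG mouse in all 4 and the lowest Control mouse in 3 of 4. In all 4 it was the highest anti-A9 mouse, as in 22.2% of all genes tested. *Jchain* was at 1974, 1156 and 1114 FPKM in Control, 431, 1236 and 298 FPKM in IgG, and 634, 2578 and 364 FPKM in anti-A9 mice. Here anti-A9 replicate 2, the anti-A9 mouse with the lowest B cell genes, was the highest of all 9, and anti-A9 replicates 1 and 3, with the highest *Ms4a1*, were among the 4 lowest. *Igha* was likewise highest in anti-A9 replicate 2 and, among IgG mice, in replicate 2, with 3816, 2451 and 3337 FPKM in Control, 991, 2844 and 1044 FPKM in IgG, and 1001, 4274 and 629 FPKM in anti-A9 mice. Means of *Igha* were 3202 ± 693 (SD, n = 3), 1626 ± 1055 (SD, n = 3) and 1968 ± 2006 FPKM (SD, n = 3) in the same order of groups, and the 3 groups overlapped.

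*Mzb1* stood at 63.2, 44.6 and 90.6 FPKM in Control, 17.6, 74.0 and 20.1 FPKM in IgG, and 47.5, 85.5 and 43.5 FPKM in anti-A9 mice. It is transcribed in both B cells and plasma cells, and its range over the mice, 5.15-fold, was the narrowest of the 9 genes. *Tnfrsf17* was low in absolute terms, at 6.56, 5.85 and 9.70 FPKM in Control, 1.23, 3.33 and 1.79 FPKM in IgG, and 1.70, 6.96 and 1.30 FPKM in anti-A9 mice. It was the member whose Control and IgG values did not overlap, the lowest Control mouse being above the highest IgG mouse, and the only one of the 9 with 2 groups apart in any of the 3 comparisons. Of all genes tested, 10.2% were lower in IgG than in Control mice without overlap. *Ighg2b* showed a pattern of its own, with 103, 11.4 and 116 FPKM in Control, 11.0, 116 and 48.6 FPKM in IgG, and 70.0, 159 and 47.7 FPKM in anti-A9 mice. Control replicate 2 and IgG replicate 1 were together at the bottom and anti-A9 replicate 2 at the top.

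**Figure D1:**
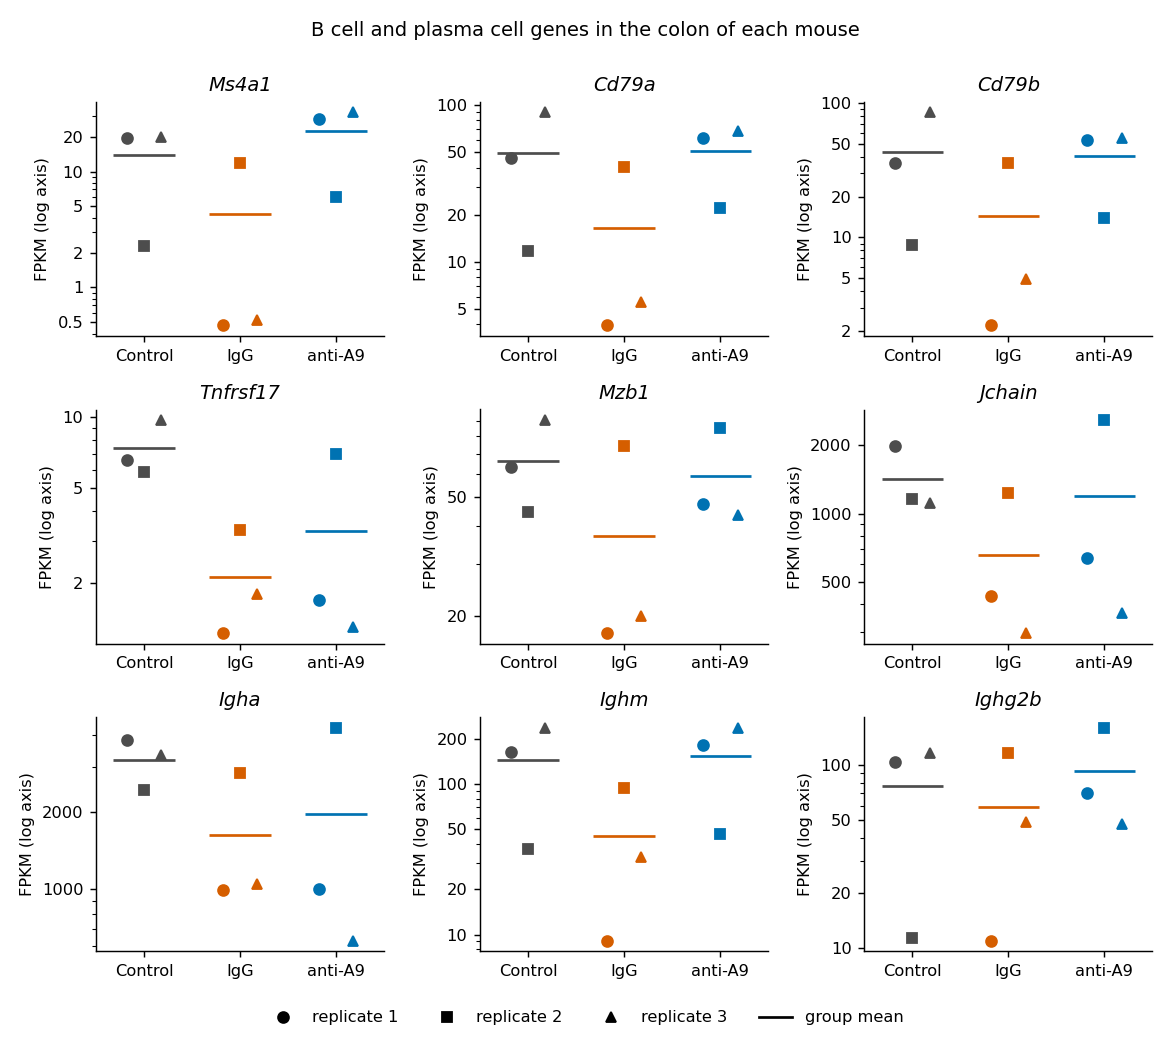
Level of each of the 9 genes (FPKM, log axis) in each mouse by group, with circles, squares and triangles for replicates 1, 2 and 3 and a bar for the group mean (3 mice a group). In Ms4a1, Cd79a, Cd79b and Ighm the square is the lowest Control, the highest IgG and the lowest anti-A9 mouse. In Tnfrsf17, Mzb1, Jchain and Igha it is likewise the highest IgG mouse, but the highest anti-A9 mouse.

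The spread between mice of the same group set the precision of every comparison. On the log2(FPKM + 0.1) scale the SD within groups was 1.93 for *Ms4a1*, 1.65 for *Cd79b*, 1.56 for *Ighg2b*, 1.46 for *Ighm* and 1.44 for *Cd79a*. It was 1.08 for *Jchain*, 0.987 for *Igha*, 0.856 for *Tnfrsf17* and 0.784 for *Mzb1*. The median over all 15278 genes tested was 0.318. The SD of *Ms4a1* was larger than that of 98.9% of all genes, and that of *Mzb1*, the steadiest member, larger than that of 90.0%.

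The comparison of IgG with Control mice asked how the tissue of AOM/DSS mice without S100a9 blockade differed from normal mucosa. None of the 9 genes passed an adjusted p of 0.05 in either direction (limma, Benjamini-Hochberg), where 3.01% of all genes were lower and 8.18% higher. At an unadjusted p under 0.05, 1 member was lower, *Tnfrsf17*, beside 10.1% of all genes. All 9 fitted differences were negative, with a median of -1.83 on the log2 scale against 0.09 over all genes. Of all genes tested, 57.6% had a positive difference. Many of the 9 genes varied together over the same mice, so their signs are not separate results. *Ms4a1* differed by -2.59 (95% CI -5.53 to 0.36; limma adjusted p = 0.221). For *Cd79a* the difference was -1.92 (95% CI -4.13 to 0.29; limma adjusted p = 0.225). These intervals hold both a large decrease and a small increase.

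Among the plasma cell genes of this comparison, *Tnfrsf17* had the smallest p, with a log2 difference of -1.83 (95% CI -3.18 to -0.48; limma adjusted p = 0.0808). *Mzb1* differed by -1.09 (95% CI -2.31 to 0.12), *Jchain* by -1.33 (95% CI -3.03 to 0.36) and *Igha* by -1.14 (95% CI -2.75 to 0.48), with limma adjusted p-values of 0.211, 0.266 and 0.319. *Ighg2b* was closest to no difference, at -0.38 (95% CI -2.76 to 2.00).

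The calls of this comparison depended on single mice. Without IgG replicate 2, 3 of 9 members were lower at a limma adjusted p under 0.05, beside 5.18% of all genes, namely *Ms4a1* (log2 difference -4.03, adjusted p = 0.0363), *Cd79a* (-2.94, adjusted p = 0.0480) and *Mzb1* (-1.75, adjusted p = 0.0180). Leaving out anti-A9 replicate 2, which left the Control and IgG values as they were and changed the shared estimate of the spread and the number of genes tested (15223 in place of 15278), gave 1 call, *Tnfrsf17* (adjusted p = 0.0292), beside 1.68% of all genes. *S100a9* in IgG replicate 2 was 173 FPKM, between the 63.1 and 267 FPKM of the other IgG mice and far above every Control mouse, so its label matched this gene.

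The comparison of anti-A9 with IgG mice asked what neutralizing S100a9 changed under AOM/DSS. It used the same IgG mice as the comparison before it. Again 0 of 9 members passed the limma adjusted p of 0.05, where 6.72% of all genes were higher and 14.4% lower. At an unadjusted p under 0.05 there were 2, both higher in anti-A9 mice, beside 14.9% of all genes: *Ms4a1*, with a log2 difference of 3.45 (95% CI 0.50 to 6.40; limma adjusted p = 0.0865), and *Cd79a*, with 2.23 (95% CI 0.02 to 4.44; limma adjusted p = 0.126). *Cd79b* differed by 2.20 (95% CI -0.32 to 4.73) and *Ighm* by 2.05 (95% CI -0.19 to 4.28).

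The plasma cell genes were nearer to 0 in that comparison, with *Mzb1* at 0.92 (95% CI -0.30 to 2.13), *Jchain* at 0.64 (95% CI -1.06 to 2.33) and *Tnfrsf17* at 0.35 (95% CI -0.999 to 1.70). *Igha* differed by -0.04 (95% CI -1.66 to 1.57), a value whose sign depended on the scaling between samples, being 0.037, 0.086 and 0.12 under 3 other scalings. Without IgG replicate 2, 4 members were higher in anti-A9 mice, beside 8.93% of all genes: *Ms4a1* by 4.90 (limma adjusted p = 0.0167), *Cd79a* by 3.25 (limma adjusted p = 0.0277), *Cd79b* by 3.34 (limma adjusted p = 0.0409) and *Mzb1* by 1.57 (limma adjusted p = 0.0212) on the log2 scale. Leaving out each of the other 8 mice in turn gave no call in this comparison.

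Anti-A9 mice were also set against Control mice, the same Control samples serving both comparisons. None of the 9 genes was called by limma, and of all genes only 0.00655% were called in each direction. At an unadjusted p under 0.05 there was 1 member, *Tnfrsf17*, lower in anti-A9 mice, beside 7.1% of all genes. *Tnfrsf17* differed by -1.48 (95% CI -2.83 to -0.14; limma adjusted p = 0.301) and *Igha* by -1.18 (95% CI -2.79 to 0.44; limma adjusted p = 0.415). The other 7 genes lay between -0.70 (*Jchain*) and 0.86 (*Ms4a1*), and each interval included 0.

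**Figure D2:**
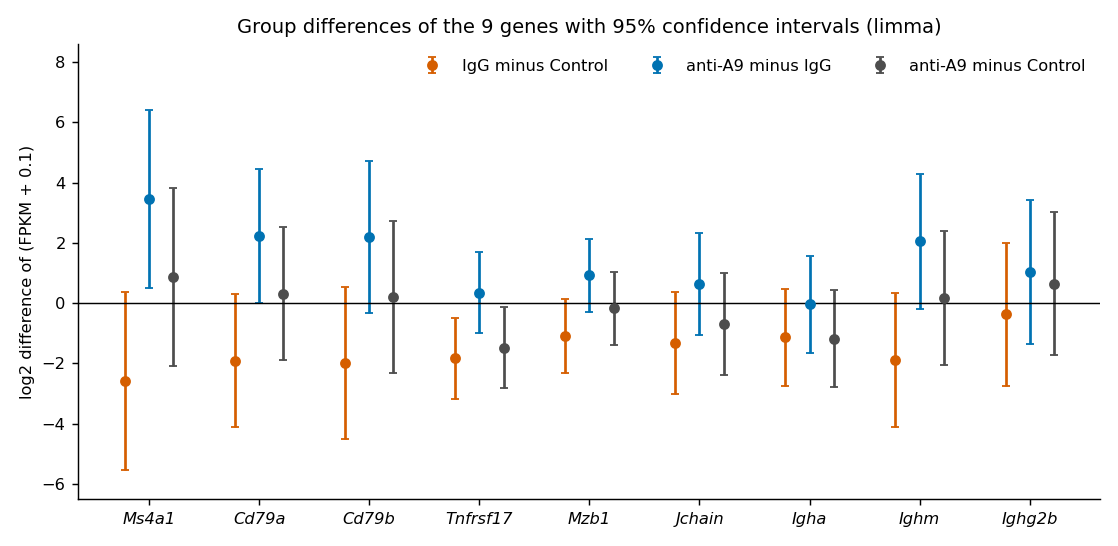
Difference between groups on the log2(FPKM + 0.1) scale for each of the 9 genes, with points for the limma estimate and bars for its 95% confidence interval, in the 3 comparisons named in the legend (3 mice a group). All 9 IgG minus Control points are below 0, where 57.6% of all genes tested are above 0. The interval excludes 0 in 4 of the 27 cases: Tnfrsf17 in both comparisons with Control, and Ms4a1 and Cd79a in anti-A9 minus IgG.

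By how they varied over the 9 mice, 8 of the 9 genes are described here as 2 blocks, with *Ighg2b* apart. The blocks and the tests below use the same 9 mice, so the tests describe the blocks and are no independent support for them. The permutations moved the 9 mice freely between groups, so a group difference shared by a pair of genes also counts in these p-values. Within *Ms4a1*, *Cd79a*, *Cd79b* and *Ighm*, Pearson's r of log2(FPKM + 0.1) was between 0.939 and 0.994 in the 6 pairs, and all 6 passed the exact permutation test after Benjamini-Hochberg adjustment over the 36 pairs of members, by Pearson's r and by Spearman's rho. For *Cd79a* and *Cd79b*, r was 0.994 (exact permutation adjusted p = 9.92e-05) and rho was 0.983 (exact permutation adjusted p = 0.000595). The same 6 pairs kept r between 0.911 and 0.993 when each value was taken as its deviation from the mean of its group, and between 0.921 and 0.992 without the 2 mice farthest from the median of the x gene.

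Within *Tnfrsf17*, *Mzb1*, *Jchain* and *Igha*, r was between 0.729 and 0.935, and 5 of 6 pairs passed by Pearson's r and 4 of 6 by Spearman's rho. *Jchain* and *Igha* had an r of 0.935 (exact permutation adjusted p = 0.00232) and a rho of 0.850 (exact permutation adjusted p = 0.0219). Deviations from group means gave an r between 0.748 and 0.966, and leaving out the 2 farthest mice an r between 0.600 and 0.954.

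Between the blocks few pairs passed, and deviations from group means gave an r between -0.092 and 0.68. Of the 16 pairs, r ranged from 0.117 to 0.787, and 2 passed by Pearson's r, both with *Mzb1*: r was 0.787 with *Cd79a* (exact permutation adjusted p = 0.0432) and 0.766 with *Cd79b* (exact permutation adjusted p = 0.0457). Neither passed by Spearman's rho, and r fell to 0.16 and 0.15 without the 2 farthest mice, so both relations rested on those mice, IgG replicates 1 and 3. With all 9 mice, r of *Mzb1* with *Cd79a* was above its r with *Igha* (0.729) and *Tnfrsf17* (0.761) of its own block. For *Cd79a* and *Jchain* r was 0.343 (exact permutation adjusted p = 0.477) and rho 0.10 (exact permutation adjusted p = 0.960). *Ighg2b* passed with no other member by Pearson's r, and by Spearman's rho with *Mzb1* (rho 0.917, exact permutation adjusted p = 0.00590) and *Igha* (rho 0.80, exact permutation adjusted p = 0.0415).

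**Figure D3:**
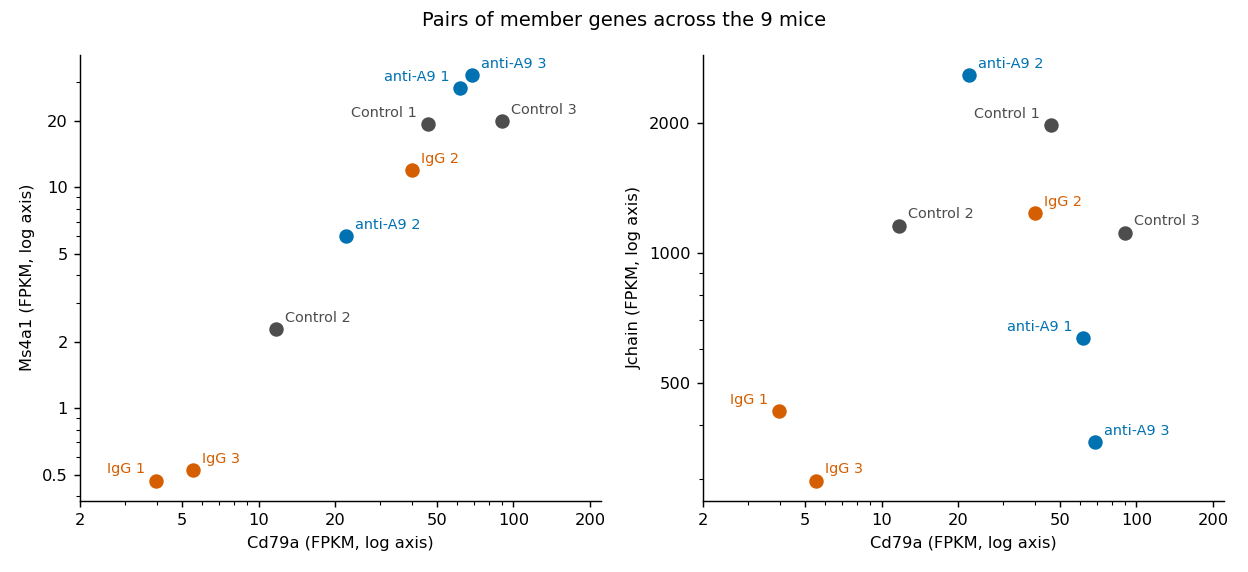
Ms4a1 against Cd79a (left) and Jchain against Cd79a (right) in the 9 mice (FPKM, log axes), each point 1 mouse labelled with its group and replicate. On the left the mice lie along 1 line (r = 0.983), and on the right anti-A9 replicate 2 is at the top with a middling Cd79a while anti-A9 replicates 1 and 3 are low in Jchain with a high Cd79a.

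The balance of the 2 blocks within a mouse does not depend on scaling. The ratio of *Jchain* to *Cd79a* was 42.7, 98.7 and 12.4 in Control, 109, 30.8 and 53.9 in IgG, and 10.3, 117 and 5.31 in anti-A9 mice. Its highest and lowest values were thus both anti-A9 mice. The ratio of *Igha* to *Jchain* was 1.93, 2.12 and 3.00 in Control, 2.30, 2.30 and 3.51 in IgG, and 1.58, 1.66 and 1.72 in anti-A9 mice. All 3 anti-A9 mice were below all 6 others, a pattern noticed in the values and not tested.

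In the wider lists the B cell genes varied together, and the plasma cell genes less so. Of 23 B cell identity genes, 21 had an r above 0.8 with *Cd79a* over the 9 mice, with a median of 0.974, and none with *Jchain*. The exceptions were *Blnk*, a signalling adaptor with 41.0 to 64.3 FPKM in all mice, and *Ly6d*, with 10.4 to 135 FPKM. *Ly6d* went the other way from the rest of the list, higher in IgG mice than in both other groups without overlap. Its log2 difference was 1.65 for IgG minus Control and -1.67 for anti-A9 minus IgG (limma adjusted p-values of 0.189 and 0.140). Of 18 plasma cell genes, 2 had an r above 0.8 with *Jchain* (median 0.52) and 2 with *Cd79a* (median 0.35). In all 23 of these genes replicate 2 was the lowest Control mouse, where this held for 23.3% of all genes tested, and in all 23 replicate 2 was the highest IgG mouse, where this held for 26.8%. Among the genes most like *Cd79a* of 12862 compared were *Siglecg*, *Gimap7*, *Spib* and *Tnfrsf13c*, the receptor for the survival factor BAFF, each with an r of 0.993 or 0.994 over the 9 mice. *Tnfrsf13c* was at 9.70, 1.36 and 15.0 FPKM in Control, 0.353, 7.77 and 0.604 FPKM in IgG, and 12.5, 2.40 and 15.8 FPKM in anti-A9 mice.

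None of the 23 genes was called in any comparison by limma. At an unadjusted p under 0.05 with more than a 2-fold difference there were 7, all higher in anti-A9 than in IgG mice, beside 7.64% of all genes. The median log2 difference of the list was -1.94 for IgG minus Control, 2.42 for anti-A9 minus IgG and 0.46 for anti-A9 minus Control. *Pax5*, the factor that maintains B cell identity, was at 3.62, 0.324 and 2.81 FPKM in Control, 0.0622, 2.12 and 0.10 FPKM in IgG, and 6.69, 1.25 and 6.70 FPKM in anti-A9 mice. Anti-A9 minus IgG was 3.25 for *Pax5* (95% CI 0.56 to 5.94; limma adjusted p = 0.0791) and 3.64 for *Cr2*, the complement receptor of mature B cells (95% CI 0.57 to 6.71; limma adjusted p = 0.0834). Without IgG replicate 2, 15 of the 23 were higher in anti-A9 than in IgG mice and 6 lower in IgG than in Control mice, at a limma adjusted p under 0.05, beside 8.93% and 5.18% of all genes.

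Genes most like *Jchain* were *Ly6c2* (r = 0.960), *Omp* (r = 0.944), *Ccr10* (r = 0.920), *Derl3* (r = 0.912) and *Ceacam10* (r = 0.859), over the same 9 mice and 12862 genes, with immunoglobulin genes left out. *Ccr10* is the homing receptor of IgA plasma cells, and *Derl3* takes part in protein degradation from the endoplasmic reticulum. *Ccr10* was at 5.12, 4.45 and 6.17 FPKM in Control, 1.82, 7.85 and 1.63 FPKM in IgG, and 2.66, 8.22 and 1.14 FPKM in anti-A9 mice, the order of *Jchain* within both AOM/DSS groups.

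The list of 18 plasma cell genes did not move as 1 group, and it holds genes that other cells of the colon use too. Compared with Control mice, 2 were higher in IgG mice by limma, near the 8.18% of all genes: *Sdc1*, the plasma cell marker CD138 that is also made by epithelium, by 1.18 (95% CI 0.69 to 1.66; limma adjusted p = 0.0121), and *Fkbp11*, a secretory pathway gene, by 0.82 (95% CI 0.31 to 1.33; limma adjusted p = 0.0490). *Fkbp11* was called under none of 19 alternative settings in that comparison. Compared with IgG mice, 3 rose in anti-A9 mice, *Irf4*, a transcription factor of plasma cells and activated lymphocytes, by 2.02, *Slamf7* by 1.96 and *Cd28*, a costimulatory receptor of T cells that plasma cells also carry, by 2.28 on the log2 scale (limma adjusted p-values of 0.0358, 0.0351 and 0.0299). In the same comparison *Sdc1* fell by 1.28, *Fkbp11* by 1.03 and *Sec11c*, a signal peptidase subunit, by 0.78 on the log2 scale (limma adjusted p-values of 0.00944, 0.0192 and 0.0422). Of all genes, 6.72% were higher and 14.4% lower in this comparison, and the median of the list was 0.03.

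*Sdc1* was at 56.2, 59.0 and 52.7 FPKM in Control, 159, 86.6 and 147 FPKM in IgG, and 52.9, 54.6 and 48.9 FPKM in anti-A9 mice. IgG mice were above both other groups without overlap, and within the IgG group the 2 mice with the higher *Sdc1* had the lower *Jchain* and *Igha*. *Sdc1* kept its call when each of the 9 mice was left out in turn, in both comparisons with IgG mice. The calls of *Irf4*, *Slamf7* and *Cd28* were less stable. All 3 were lost without IgG replicate 1, without IgG replicate 3 and without any 1 of the anti-A9 mice, and that of *Irf4* also without Control replicate 2, and their limma adjusted p-values reached 0.114, 0.110 and 0.0891 in these fits. For anti-A9 against IgG mice, that of *Fkbp11* was lost without anti-A9 replicate 1 or 3, and that of *Sec11c* held in 2 of 9 fits, those without Control replicate 2 or 3.

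**Figure D4:**
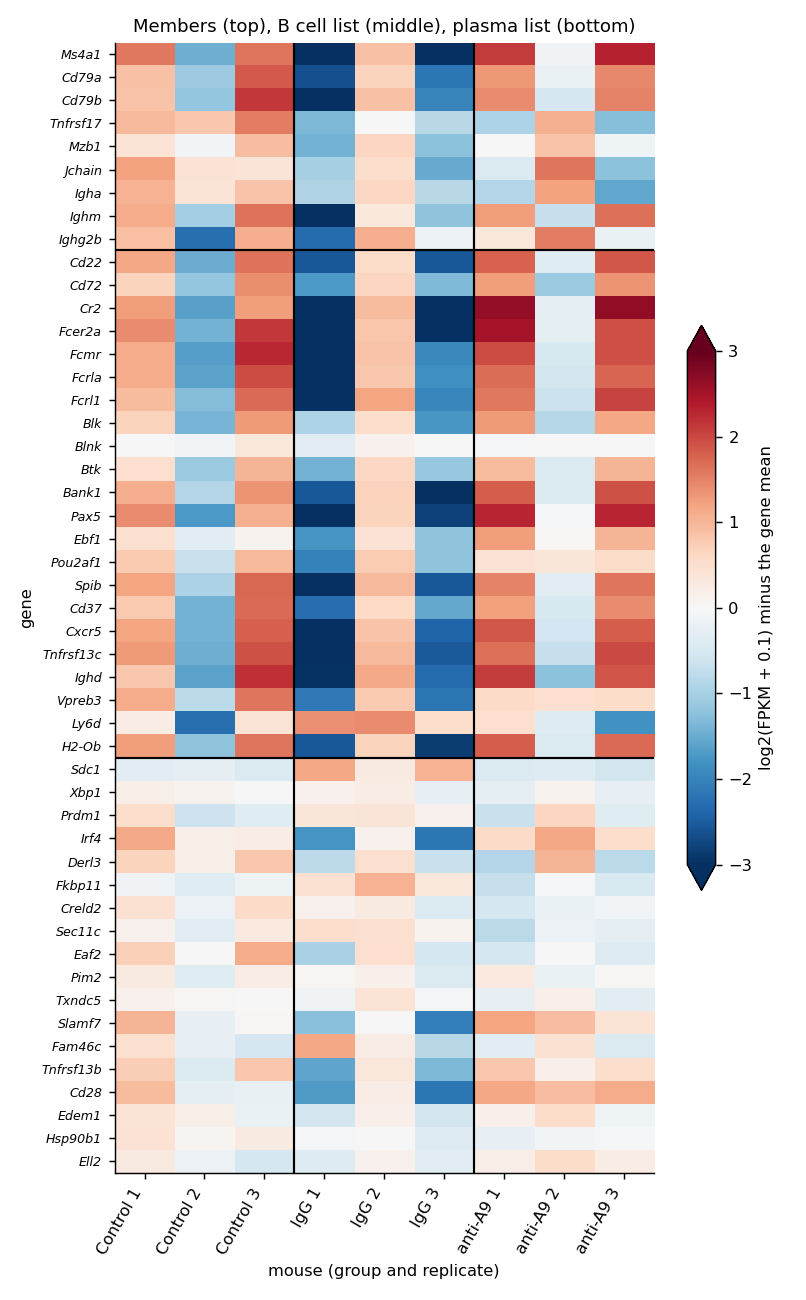
Level of each gene in each mouse as log2(FPKM + 0.1) minus the mean of that gene over the 9 mice, red above and blue below it, with colors saturating at 3. The rows are the 9 members (top), 22 of the 23 B cell identity genes (middle) and the 18 plasma cell genes (bottom). IgG replicates 1 and 3 are the 2 lowest of the 9 mice in 5 of the 9 member rows, 19 of the 22 B cell rows and 6 of the 18 plasma cell rows. Of all genes tested, 30.8% have their single lowest mouse in IgG replicate 1 or 3, a looser measure.

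Genes that organize lymphoid follicles showed smaller numbers of calls. Of 12, 1 rose in anti-A9 compared with IgG mice, *Tnfsf13b*, which encodes BAFF, by 0.90 (95% CI 0.34 to 1.46; limma adjusted p = 0.0355), and 1 fell, *Ltbr*, the lymphotoxin receptor of stromal cells, by 0.73 on the log2 scale (limma adjusted p = 0.0215), where 6.72% of all genes were higher and 14.4% lower. With each mouse left out in turn, the call of *Tnfsf13b* held in 4 and that of *Ltbr* in 5 of 9 fits. *Cxcl13*, the chemokine that draws B cells into follicles, was at 77.2, 42.7 and 84.3 FPKM in Control, 3.22, 51.3 and 40.4 FPKM in IgG, and 93.1, 45.3 and 121 FPKM in anti-A9 mice. None of 8 germinal center genes was called by limma in any comparison. At an unadjusted p under 0.05 with over a 2-fold difference, 1 was lower in IgG than in Control mice, beside 5.19% of all genes. By the same rule 1 was higher in anti-A9 than in IgG mice, beside 7.64% of all genes.

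For IgA transport and homing, 1 of 8 genes was called, *Itga4*, the alpha 4 integrin of gut-homing lymphocytes, which was higher in anti-A9 than in IgG mice by 2.01 (95% CI 0.87 to 3.14; limma adjusted p = 0.0270), and its call held in 4 of 9 such fits. The share of all genes higher in this comparison was 6.72%, so 1 of 8 is close to the background. *Pigr* was at 1042, 884 and 791 FPKM in Control, 209, 721 and 343 FPKM in IgG, and 613, 806 and 643 FPKM in anti-A9 mice, with IgG below Control without overlap. Its log2 difference was -1.27 for IgG minus Control (95% CI -2.19 to -0.36; limma adjusted p = 0.0761). *Ccl28*, the epithelial chemokine bound by CCR10, was at 43.0, 59.0 and 37.6 FPKM in Control, 2.86, 33.4 and 11.9 FPKM in IgG, and 39.1, 60.7 and 44.7 FPKM in anti-A9 mice. The lowest *Pigr* and *Ccl28* were those of IgG replicates 1 and 3, the mice with the lowest *Cd79a*.

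Immunoglobulin rows took a large part of the FPKM total in some mice. That total is scaled by transcript length, so its shares are not shares of the RNA. The 245 immunoglobulin rows held 15.3%, 6.48% and 9.71% of the FPKM total in Control, 3.26%, 7.33% and 2.41% in IgG, and 4.82%, 13.7% and 3.70% in anti-A9 mice. *Igkc*, the kappa light chain constant region, made up 88.5% to 97.6% of the light chain constant regions, and its ratio to *Igha* stayed between 3.49 and 4.76. None of the 10 other constant region genes that passed the filter was called in any comparison, at an adjusted p under 0.05 or at an unadjusted p under 0.05 with over a 2-fold difference (limma).

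The mix of heavy chains differed between mice more than the light chains did. *Igha* held 90.9%, 97.1% and 83.7% of the FPKM of all heavy chain constant regions in Control, 92.6%, 88.0% and 86.0% in IgG, and 68.2%, 87.6% and 59.4% in anti-A9 mice. Anti-A9 replicates 1 and 3 were below every other mouse. *Ighm* held 3.91%, 1.47% and 5.93% in Control, 0.852%, 2.91% and 2.72% in IgG, and 12.4%, 0.958% and 22.4% in anti-A9 mice. These shares are set by both blocks, since the same 2 mice had an *Igha* among the 3 lowest and the highest *Ms4a1*.

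The 4 IgG subclass genes together held 4.60%, 1.26% and 8.31% in Control, 6.37%, 8.20% and 11.1% in IgG, and 15.6%, 11.2% and 13.7% in anti-A9 mice. The lowest anti-A9 mouse was barely above the highest IgG mouse, and no test was run. Which subclass prevailed changed from mouse to mouse. *Ighg1* and *Ighg2c* reached 168 and 174 FPKM in anti-A9 replicate 2, where no other mouse exceeded 36.0 and 54.2 FPKM, whereas *Ighg3* was highest in Control replicate 3 and anti-A9 replicate 1. *Ighe*, which encodes the heavy chain of IgE, was at 22.4 FPKM in Control replicate 3 and 7.87 FPKM in anti-A9 replicate 2 and at 0.645 FPKM or less in the other 7 mice. The shared coding runs printed above bear on *Ighg1*, *Ighg2b*, *Ighg2c* and *Ighg3*, and on neither *Igha* nor *Ighm*.

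**Figure D5:**
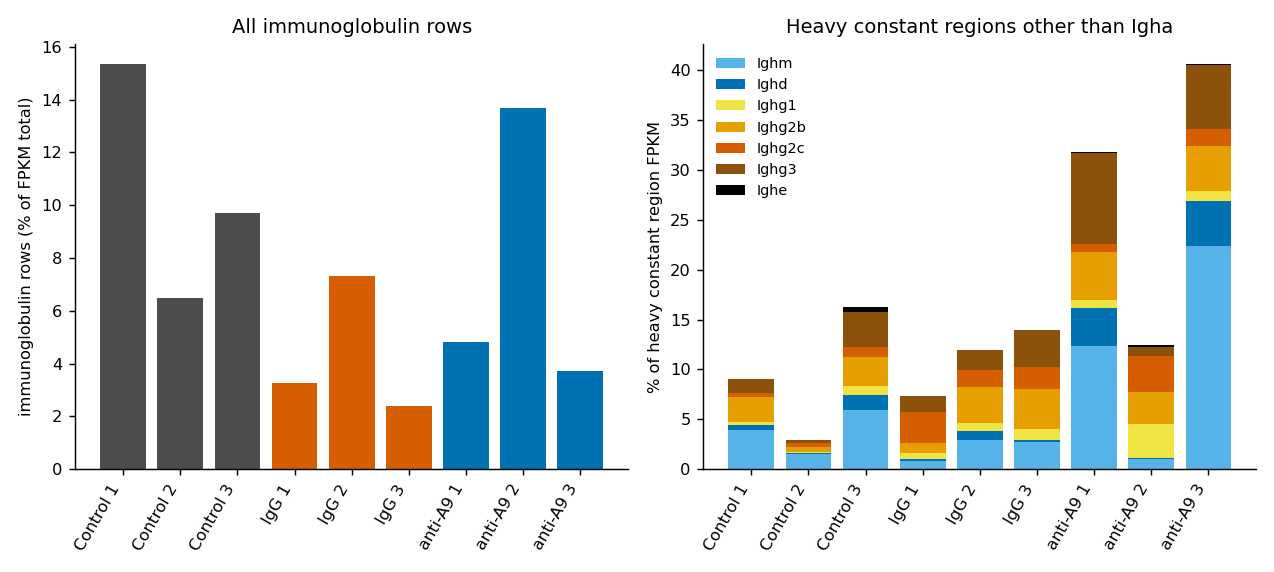
Left, all immunoglobulin rows as percent of the FPKM total of each mouse, and right, the heavy chain constant regions other than Igha as stacked percent of all heavy chain constant regions, 1 bar a mouse. Immunoglobulin rows take between 2.41% and 15.3% of the total, and the bars at the right reach furthest in anti-A9 replicates 1 and 3, where Ighm holds 12.4% and 22.4%.

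Markers of other cells moved with the B cell genes in part. *Ptprc*, which encodes the leukocyte antigen CD45, was at 26.7, 7.01 and 17.0 FPKM in Control, 4.81, 18.9 and 3.41 FPKM in IgG, and 34.9, 13.3 and 34.8 FPKM in anti-A9 mice. The ratio of *Cd79a* to *Ptprc* was between 1.62 and 2.12 in 7 of the 9 mice, with 0.821 in IgG replicate 1 and 5.27 in Control replicate 3. All 4 leukocyte markers had an r above 0.8 with *Cd79a*, and their summed level was between 58.6 and 247 FPKM in Control, 56.9 and 191 FPKM in IgG, and 101 and 228 FPKM in anti-A9 mice. All 9 T cell markers were lowest in replicate 2 among Control mice, as were 23.3% of all genes tested, and among anti-A9 mice, as were 46.6%. Their summed level was between 12.1 and 81.1 FPKM in Control, 12.2 and 45.6 FPKM in IgG, and 34.6 and 65.2 FPKM in anti-A9 mice. Of the 9 T cell markers, *Cd4* alone was called, rising in anti-A9 compared with IgG mice by 2.26 (95% CI 1.23 to 3.29; limma adjusted p = 0.0157), beside 6.72% of all genes. The call was lost without anti-A9 replicate 2 and without anti-A9 replicate 3.

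The 6 smooth muscle markers summed to between 1801 and 2857 FPKM in Control, 518 and 3251 FPKM in IgG, and 2246 and 4074 FPKM in anti-A9 mice, and the 8 epithelial markers to between 4020 and 5275, 3073 and 5113, and 3498 and 4497 FPKM in the same order of groups. *Epcam*, an epithelial adhesion molecule, was between 584 and 890.1 FPKM in all 9 mice. In anti-A9 compared with IgG mice the smooth muscle myosin *Myh11* rose by 2.01 (limma adjusted p = 0.0331) and the keratin *Krt18* fell by 1.42 on the log2 scale (limma adjusted p = 0.0129). *Krt18* was also higher in IgG than in Control mice by 1.19 (limma adjusted p = 0.0256), and no other marker of these 2 lists was called. Of all genes, 8.18% were higher in IgG than in Control mice. In anti-A9 compared with IgG mice, 6.72% of all genes were higher and 14.4% lower.

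The 5 adipocyte markers summed to between 74.3 and 261 FPKM in Control, 9.70 and 45.1 FPKM in IgG, and 19.4 and 36.3 FPKM in anti-A9 mice. Of the 4 that passed the filter, 3 were lower in IgG than in Control mice by limma, beside 3.01% of all genes. They were *Adipoq* (limma adjusted p = 0.0220), *Plin1* (limma adjusted p = 0.0300) and *Cfd* (limma adjusted p = 0.0415). None of the 4 was called in anti-A9 compared with IgG mice. *Cfd*, which encodes adipsin, was at 30.7, 133 and 31.5 FPKM in Control, 0.0619, 12.4 and 0 FPKM in IgG, and 1.16, 0.0944 and 0.156 FPKM in anti-A9 mice. Control replicate 2, the Control mouse with the lowest B cell genes, was the highest of the 9 in all 5 markers. *Lep*, which encodes leptin, was listed at 0 in every anti-A9 mouse. No defining marker of leukocytes, T cells, muscle or epithelium was at 0 in a whole group. The part of leukocyte content, of the tissue layers sampled, fat included, and of lymphoid follicles in the values of the 9 genes was not tested.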

How the data were processed

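Colorectal RNA of 9 mice was sequenced, 3 per group. The authors deposited a table for each mouse holding FPKM in 21544 rows, each named by a gene symbol. This unit is not stated and was read from the values. The submitters' processing notes name TopHat, Cufflinks, HTSeq, DESeq and GRCm38, with versions not given in the sources used here, and the study's DESeq test was not repeated because no counts were used here. FPKM divides by gene length and by the library, so a large immunoglobulin share lowers every other value in the same mouse.

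Rows that repeat a symbol were added together (21498 symbols). Values were analyzed as log2(FPKM + 0.1) for the 15278 genes that reached 0.1 FPKM in 3 or more mice. Fold changes are on that scale and understate changes of low genes. All 9 mice entered 1 limma 3.58.1 fit (R 4.3.3, group as the only term, empirical Bayes with an intensity trend), with Benjamini-Hochberg adjustment over all genes tested and a threshold of 0.05. The fit was tested on simulated data. Correlations used exact permutation in Python 3.11.15. Ratios and shares within a mouse were not tested. An EBF motif was also searched in the upstream windows, and its matches are left out of the text and the tables after they were seen. Figures were drawn with matplotlib 3.10.9.

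The 9 genes, the gene lists and the tests were chosen with earlier results of these data known. Genes named in the text are the 9 members, a set of B cell, plasma cell and context genes, and, from each list, up to 4 called genes with the largest change and a mean of at least 1 FPKM in a group. *Siglecg*, *Gimap7*, *Ly6c2*, *Omp*, *Ccr10*, *Derl3* and *Ceacam10* were named by likeness. *Blnk*, *Ly6d*, *Gapdh*, *Myh11*, *Krt18*, *Adipoq*, *Plin1*, *Cfd*, *Lep*, *Ccl28*, *Ighg1*, *Ighg2c*, *Ighg3* and *Ighe* were named after their values were seen. Of 132 listed genes other than the members, 130 were found, and some of them are not reported here. Absolute depth is unknown, so no counting intervals are given. No pair of mice had identical profiles, the largest share of equal positive values in a pair being 0.00638%. Alternatives changed the pseudocount, the filter, the samples fitted, the trend, the scaling, the call rule and the replicate block, and left out each mouse in turn.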

Additional observations from a re-analysis of the deposited data

How the results depend on the processing

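With unadjusted p under 0.05 and over 2-fold as the call, 1 member was lower for IgG against Control, 2 were higher for anti-A9 against IgG and 1 was lower for anti-A9 against Control, in place of 0 each. So were 7 B cell identity genes, all higher, for anti-A9 against IgG, and 5 plasma cell genes, 1 higher and 4 lower, were called for IgG against Control. By this rule 5.19% of all genes were lower in IgG than in Control mice and 7.64% higher in anti-A9 than in IgG mice. At an unadjusted p under 0.05 without the fold rule, 7.1% of all genes were lower in anti-A9 than in Control mice (limma). The share of all genes higher in IgG than in Control mice by the 2-fold rule is not given here. Every other setting with no single mouse left out kept the members and the B cell list at 0 calls. Leaving out each mouse in turn gave between 0 and 3 members for IgG against Control, between 0 and 4 for anti-A9 against IgG, and 0 for anti-A9 against Control. For the B cell list the same fits gave between 0 and 6 and between 0 and 15 calls in the first 2 comparisons. The largest counts of the members and of this list came without IgG replicate 2. In that fit 5.18% of all genes were lower in IgG than in Control mice and 8.93% higher in anti-A9 than in IgG mice. For the plasma cell list, leaving out each mouse gave between 1 and 6 calls for IgG against Control, in place of 2, and between 1 and 6 for anti-A9 against IgG, in place of 6. With no mouse left out, 8.18% of all genes were higher and 3.01% lower in IgG than in Control mice. In anti-A9 compared with IgG mice, 6.72% were higher and 14.4% lower. The shares of all genes in the alternative fits of this list are not given here, so its counts are not read as a result. The plasma cell list gave 1 call for IgG against Control with a pseudocount of 1 or 0.01, no filter, a filter of 1 FPKM, the replicate block, no intensity trend and each of the 3 scalings, and 0 with only the 2 groups fitted.

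Of 513 alternative values of the members' log2 differences, 483 kept their direction and side of the threshold, 8 passed it and 22 changed sign. Signs changed for *Igha*, anti-A9 minus IgG (0.037 by median-of-ratios scaling, 0.086 by quantile normalization, 0.12 with equal totals over rows other than immunoglobulin), for *Igkc* in that comparison (-0.22 by quantile normalization), and for *Sdc1*, anti-A9 minus Control (0.041 by quantile normalization, 0.049 with equal totals over rows other than immunoglobulin). The cause was not tested. Leaving out 1 mouse gave ranges that cross 0 for anti-A9 minus Control in *Ms4a1* (-0.15 to 1.63), *Cd79a* (-0.51 to 0.96), *Cd79b* (-0.68 to 0.95), *Mzb1* (-0.48 to 0.080), *Ighm* (-0.64 to 0.88), *Ighg2b* (-0.44 to 1.23), *Pou2af1* (-0.43 to 0.38), *Tnfrsf13b* (-0.28 to 0.34) and *Ccl28* (-0.13 to 0.24), for anti-A9 minus IgG in *Tnfrsf17* (-0.37 to 0.80), *Jchain* (-0.17 to 1.24), *Igha* (-0.85 to 0.53) and *Igkc* (-0.60 to 0.71), and for IgG minus Control in *Ighg2b* (-1.46 to 0.54).

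The labels give replicate numbers 1 to 3 in every group but do not say that a number marks shared mice or days. Same-numbered mice deviated together with r between -0.19 and 0.25. Mice of different numbers were not compared, so these values cannot tell whether a number marks a shared day or batch. With the replicate block, 0 members were called in each comparison, and *Ms4a1* for anti-A9 minus IgG kept 3.45 with a limma adjusted p of 0.127. With 3 mice a group and SDs within groups of 0.784 to 1.93 on the log2 scale, the data allow any difference within the intervals given.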
